A study of Mus musculus with 2 samples.

Results

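The collagen genes of the mouse were described in embryonic limb: every protein-coding gene whose symbol is Col, a type number, the letter a and a chain number. The rule found 44 genes among the 43346 genes measured, of which 21474 are protein-coding. The source was limb tissue of B6NCrl mouse embryos at 14.5 days, sequenced as total RNA in 2 libraries that form 1 group with no treatment and no second genotype. The RNA input was 10 ng a library, restricted to molecules over 200 nt, and spike-in RNAs were added. The labels number the samples as biological replicates 1 and 2. Per the labels, the 4 limbs of 1 pup went into a sample. Both samples carry the same donor identifier and equal pup and pregnancy numbers, their collection days differ, and the sex is pooled. Beyond the replicate numbers, how far the samples are separate animals cannot be told from the labels. Forelimb and hindlimb, skin, blood, muscle and skeleton are all in the same RNA, so in such bulk tissue fewer cells of a type and less RNA per cell cannot be told apart.

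Collagens are trimers whose chains wind around each other along stretches with a glycine at the first place of each triplet of residues. Fibrillar collagens build the load-bearing fibrils of bone, tendon, skin and cartilage. The FACIT class (fibril-associated collagens with interrupted helices) coats those fibrils, type IV forms the sheets of basement membranes, types VIII and X form networks, type VI forms beaded filaments, and the multiplexins, the transmembrane collagens and the anchoring fibrils of type VII serve cell surfaces and epithelial borders. In the embryonic limb, types I and III are known from loose mesenchyme, dermis, tendon and bone, and types II, IX and XI from the cartilage models of the skeleton.

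The pattern that defines the family can be read from the coding sequences, and it is shown here for the genes of highest level, for the hypertrophic cartilage gene Col10a1 and for the basement membrane pair. The first 20 codons of the longest run of glycine triplets are given for the first 5 genes, and the last triplets of that run with the sequence after its break for Col4a1 and Col4a2, 5′ to 3′ from the GENCODE M21 transcripts (GRCm38). Capitals mark the glycine codons of the run, GGN in the first place of each triplet.
Col1a1: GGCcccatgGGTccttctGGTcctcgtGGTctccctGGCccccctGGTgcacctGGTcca
Col1a2: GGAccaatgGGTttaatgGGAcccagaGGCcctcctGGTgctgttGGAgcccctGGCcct
Col3a1: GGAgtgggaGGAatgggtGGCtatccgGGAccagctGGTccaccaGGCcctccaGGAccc
Col2a1: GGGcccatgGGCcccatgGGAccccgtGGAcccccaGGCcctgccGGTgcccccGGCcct
Col10a1: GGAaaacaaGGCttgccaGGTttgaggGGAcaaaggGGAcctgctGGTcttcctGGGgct
Col4a1: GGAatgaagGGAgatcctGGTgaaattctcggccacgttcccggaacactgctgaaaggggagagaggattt
Col4a2: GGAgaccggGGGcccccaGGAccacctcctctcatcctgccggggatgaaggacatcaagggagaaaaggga
After the last capitals in Col4a1 and in Col4a2 the phase of the run is lost, and glycine codons in lower case there do not belong to it.

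The glycine runs differed between classes. Counting runs of 5 or more triplets, the 11 fibrillar genes carried 2 to 3 runs each, with a longest run of 216 to 344 triplets and a median of 338. The longest run had 344 triplets in Col3a1, 339 in Col1a2 and Col2a1, and 338 in Col1a1. The exceptions at the short end were Col24a1 with 216 and Col27a1 with 217 triplets. The 6 basement membrane genes had 16 to 24 runs, with a longest run of 39 to 66 triplets. In the FACIT class the longest run was 113 triplets in each of Col9a1, Col9a2, Col9a3 and Col22a1, and 32 in each of Col12a1, Col14a1 and Col20a1. Runs made up 77.2% of the codons of Col1a2 and 7.63% of those of Col12a1. Codon use in the runs also differed between genes: GGT made up 53.8% of glycine codons in Col1a1 and 51.3% in Col1a2, 40.7% in Col2a1, 21.3% in Col4a1 and 15.0% in Col4a2. These are properties of the reference genome and not of the limb.

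**Figure D1:**
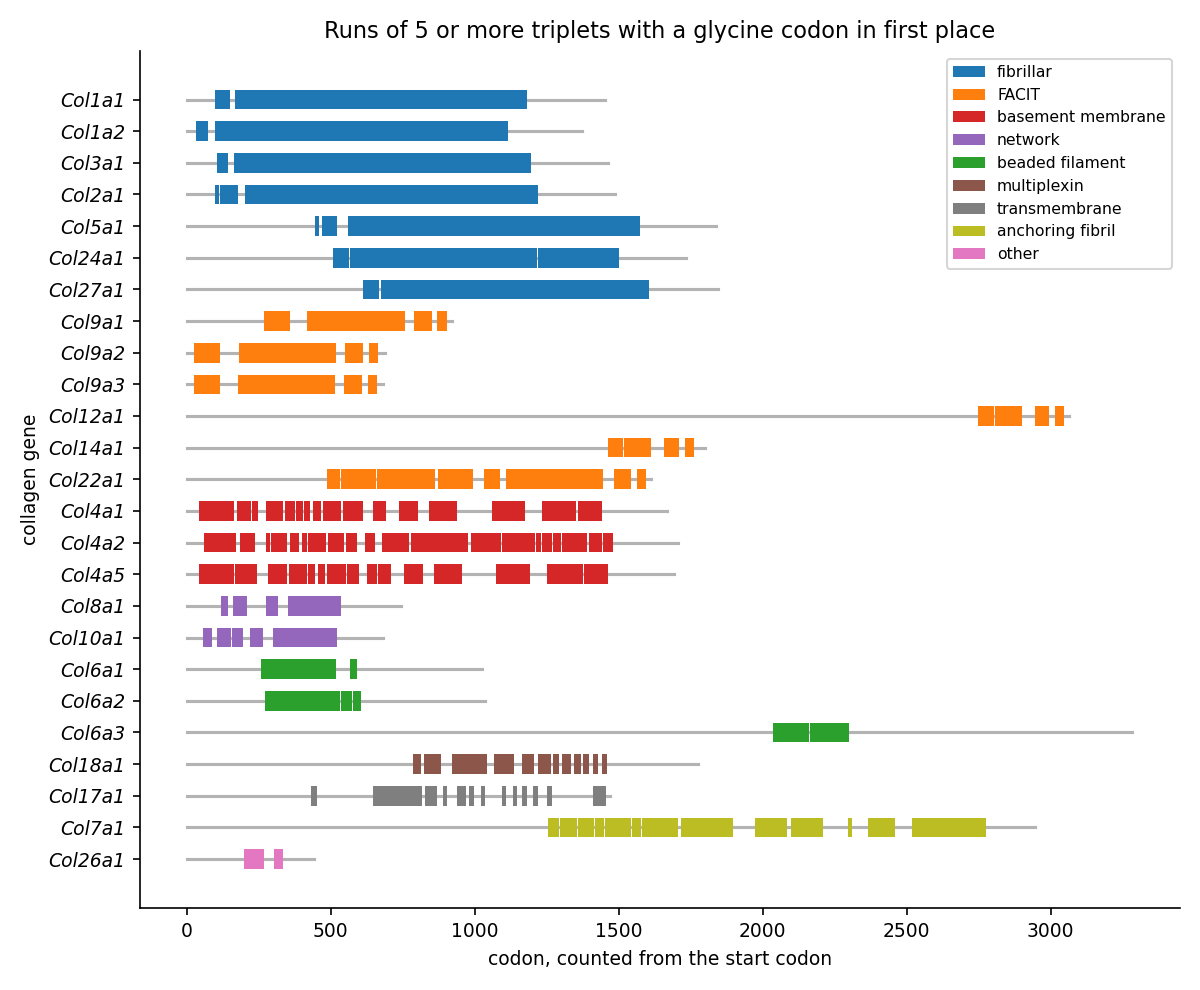
Position of runs of 5 or more glycine triplets (coloured blocks) along the coding sequence (grey line, in codons from the start codon) of 25 collagen genes, coloured by class. Col1a1, Col1a2, Col2a1 and Col3a1 each have 1 long block, of 344 triplets in Col3a1, and Col4a1 has 16 short ones.

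Replicate 2 held 32879425 expected counts (estimated reads assigned to features) and replicate 1 held 34193161. Collagens took 2.79% of the gene counts in replicate 2 and 3.11% in replicate 1. Markers of limb tissues were detected: all 6 limb mesenchyme genes, including Tbx5 and Tbx4, all 6 cartilage genes and all 8 muscle genes reached 1 TPM in both libraries. Of 4 hypertrophic cartilage markers 3 did, with Mmp13 at 0.67 TPM in replicate 2. Of 5 smooth muscle and pericyte markers 4 did, with Myh11 at 0.63 TPM in replicate 2. TPM, a transcript's share of all transcripts on a scale with the same total in each library, is a level per transcript length and can be compared between genes.

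Nearly the whole family was transcribed in the limb. In total, 39 of 44 collagen genes (88.6%) reached 1 TPM in both libraries, against 13191 protein-coding genes (61.4%). The median level over both libraries was 41.0 TPM for collagens and 4.93 TPM for protein-coding genes. The summed collagen level was 8453 TPM in replicate 2 and 9193 TPM in replicate 1, a mean of 8823 ± 523 TPM (SD, n = 2). The 3 leading genes, Col3a1, Col1a1 and Col1a2, held 63.9% of that sum in replicate 2 and 66.5% in replicate 1. Levels of 100 TPM or more in both libraries were found for 15 members and 10 TPM or more for 30 members. All SDs are over 2 libraries, so they show the spread between these libraries and nothing more.

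The fibrillar class held 78.3 ± 0.995% of the summed collagen level, at 6912 ± 497 TPM. The FACIT class followed with 9.50 ± 0.629%, the beaded filament class with 6.25 ± 0.147% and the basement membrane class with 2.36 ± 0.151%. Each of the remaining classes stayed under the basement membrane class: networks at 0.989 ± 0.0564%, multiplexins at 0.958 ± 0.0811%, Col26a1 with Col28a1 at 0.849 ± 0.198%, the transmembrane collagens at 0.694 ± 0.0573% and the anchoring fibril gene at 0.0887 ± 0.0305%. The order of networks and multiplexins lies within their spread between libraries. By expected counts, which are not per length, the FACIT share was 6.39%, and Col26a1 with Col28a1 held 0.431%, below the transmembrane collagens at 0.748%. All 11 fibrillar, all 9 FACIT, all 3 network, all 4 transmembrane and both multiplexin genes reached 1 TPM in both libraries, and the 5 genes that did not were Col4a3, Col4a4, Col6a4, Col6a5 and Col28a1.

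**Figure D2:**
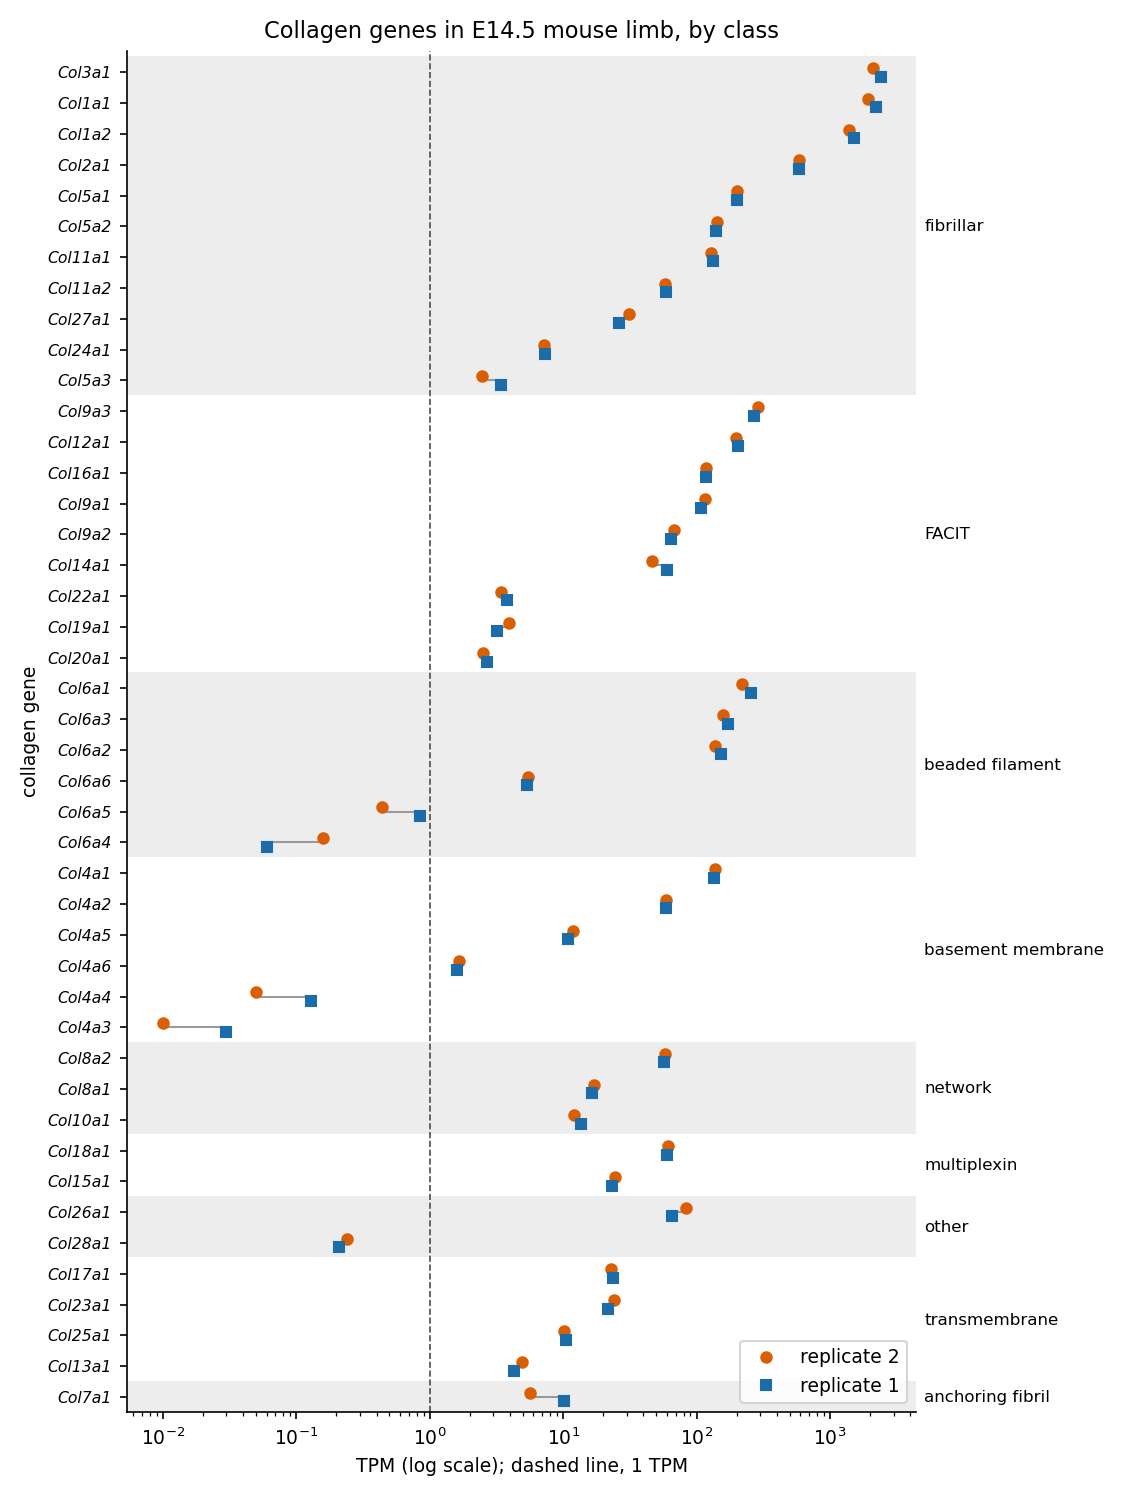
Level in TPM (log axis) of all 44 collagen genes in replicate 2 (circles) and replicate 1 (squares), ordered by class and level, with a dashed line at 1 TPM. Col3a1 and Col1a1 stand highest at means of 2236 and 2075 TPM, and 5 genes lie left of the line.

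Col3a1 (chr1:45311538-45349706, plus strand), which encodes the chain of type III collagen of elastic connective tissue, was the highest collagen gene with 2084 TPM in replicate 2 and 2388 TPM in replicate 1, the rank of 17 among protein-coding genes. Col1a1 (chr11:94936224-94953042, plus strand), the α1 chain of type I collagen, stood at 1939.8 in replicate 2 and 2209 TPM in replicate 1. Col1a2 (chr6:4504814-4541544, plus strand), its α2 partner, stood at 1380.3 in replicate 2 and 1515 TPM in replicate 1. All 3 were lower in replicate 2, and the order of Col3a1 and Col1a1 is within the spread between libraries. It also turns round when counts are divided by the length of the longest complete coding transcript, which puts Col1a1 first and Col3a1 at rank 2 of the family. These counts per kb are scaled so that protein-coding genes keep their summed TPM, and they are given beside the TPM of genes where they differ by over 1.5 times.

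Among the genes known from cartilage, the type II chain Col2a1 (chr15:97975602-98004695, minus strand) stood at 587 in replicate 2 and 584 TPM in replicate 1 of whole limb. Type XI chains join type II fibrils: Col11a1 was at 128 in replicate 2 and 132 TPM in replicate 1, and Col11a2 at 57.7 in replicate 2 and 58.8 TPM in replicate 1. Levels of these cartilage fibril genes were close in both libraries. The type V chains, which set the width of type I fibrils, were at 201 in replicate 2 and 199.8 TPM in replicate 1 for Col5a1, and at 141 in replicate 2 and 139.9 TPM in replicate 1 for Col5a2. Col5a3, the rarer α3 chain, had 2.48 TPM in replicate 2 and 3.45 TPM in replicate 1. Among fibrillar genes with shorter glycine runs, Col27a1, known from cartilage, had 31.3 TPM in replicate 2 and 26.3 TPM in replicate 1 (averaging 28.8 TPM, and 18.5 by counts per kb), and Col24a1, known from bone, had 7.16 TPM in replicate 2 and 7.29 TPM in replicate 1.

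Type IX collagen, the FACIT of cartilage, was led by Col9a3 at 287 in replicate 2 and 267 TPM in replicate 1. Col9a1 followed at 116 in replicate 2 and 107 TPM in replicate 1, and Col9a2 at 67.5 in replicate 2 and 64.8 TPM in replicate 1. All 3 type IX genes were higher in replicate 2 by TPM, each by less than the spread between libraries of genes at that level, and by TMM-scaled counts Col9a3 and Col9a2 were lower instead, at log2 ratios of -0.03 and -0.02. Among the FACIT genes of tendon, dermis and other dense tissue, Col12a1 had 196 TPM in replicate 2 and 206 TPM in replicate 1 (averaging 201 TPM, and 92.7 by counts per kb, rank 7 and 13 of the family), and Col14a1 had 46.3 TPM in replicate 2 and 60.0 TPM in replicate 1. Col16a1, a FACIT found in several tissues, had 117 TPM in replicate 2 and 118 TPM in replicate 1 (averaging 118 TPM, and 76.4 by counts per kb). The remaining FACIT genes, Col19a1, Col20a1 and Col22a1, lay between 2.51 and 3.95 TPM in both libraries.

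The chains of type VI beaded filaments, which surround muscle fibres and other cells, stood at 221 in replicate 2 and 254 TPM in replicate 1 for Col6a1, and at 136 in replicate 2 and 152 TPM in replicate 1 for Col6a2. Col6a3, the long partner chain, had 157 TPM in replicate 2 and 173 TPM in replicate 1 (averaging 165 TPM, and 78.3 by counts per kb). All 3 were lower in replicate 2. The later-named type VI chains were far below them: Col6a6 at 5.50 in replicate 2 and 5.37 TPM in replicate 1, with Col6a5 and Col6a4 under 1 TPM.

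Among the basement membrane genes, Col4a1 had 136.5 TPM in replicate 2 and 135.7 TPM in replicate 1. Col4a2, its partner in the widespread trimer, had 58.6 TPM in replicate 2 and 58.8 TPM in replicate 1. Col4a5 stood at 11.8 in replicate 2 and 10.9 TPM in replicate 1, and Col4a6, known from smooth muscle and skin basement membranes, at 1.66 in replicate 2 and 1.61 TPM in replicate 1. The other two chains, Col4a3 and Col4a4, known from the kidney glomerulus, had expected counts of 2.04 and 10 in replicate 2 and of 5.09 and 31 in replicate 1. These are too few to say more than that both genes lie near the limit of detection at this depth.

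Among networks, Col8a2 had 57.9 TPM in replicate 2 and 57.4 TPM in replicate 1, and its partner Col8a1 17.1 TPM in replicate 2 and 16.4 TPM in replicate 1. Col10a1, the mark of hypertrophic chondrocytes, had 12.0 TPM in replicate 2 and 13.6 TPM in replicate 1. The multiplexin Col18a1, whose C-terminal fragment is endostatin, had 61.4 TPM in replicate 2 and 59.6 TPM in replicate 1, and Col15a1, its relative in muscle and vessel basement membranes, 24.4 TPM in replicate 2 and 23.1 TPM in replicate 1. Col17a1, the hemidesmosome collagen of basal keratinocytes, had 22.9 TPM in replicate 2 and 23.7 TPM in replicate 1. The transmembrane genes Col23a1, Col25a1 and Col13a1 lay between 4.28 and 24.1 TPM in both libraries. Col7a1, the anchoring fibril gene of the dermal border, had 5.68 TPM in replicate 2 and 10.1 TPM in replicate 1, and Col26a1, which has short glycine runs and belongs to none of these classes, had 83.4 TPM in replicate 2 and 64.9 TPM in replicate 1.

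Partner chains, which share a trimer, mostly differed in TPM. Their 13 ratios were set against the spread between libraries, taken as the value that 95% of the 500 genes nearest in level to the lower chain stay under in absolute log2 ratio between the libraries. No p is given, since the smallest p that exact sign flips of 2 libraries allow is 0.5. The mean ratio lay beyond that spread for 12 of 13 pairs. The spread leaves out errors that both libraries share, such as in the transcript length used, so this count is no test of equal abundance. Type I collagen is mostly built from a pair of α1 chains and a single α2 chain, and Col1a1 exceeded Col1a2 1.41-fold in replicate 2 and 1.46-fold in replicate 1 (log2 ratio 0.52 ± 0.04, spread 0.25). Col5a1 exceeded Col5a2 by a log2 ratio of 0.51, and Col5a3 lay below Col5a1 at a log2 ratio of -6.05 ± 0.33. Col4a1 exceeded Col4a2 2.32-fold (log2 1.21, spread 0.29), and the value was 2.31-fold by counts per kb.

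Among the cartilage chains, Col2a1 exceeded Col11a1 4.49-fold by TPM and 6.27-fold by counts per kb of the longest complete coding transcript. Col11a1 exceeded Col11a2 2.23-fold by TPM and 1.79-fold by counts per kb. Among the type IX chains, which form a trimer of 1 each, Col9a3 exceeded Col9a2 4.19-fold by TPM and 3.31-fold by counts per kb, and Col9a1 exceeded Col9a2 1.69-fold by TPM and 1.44-fold by counts per kb. Col8a1 lay below Col8a2 at a log2 ratio of -1.78 (spread 0.40), and Col4a5 exceeded Col4a6 6.59-fold. Col6a1 exceeded Col6a2 1.65-fold. Between TPM and counts per kb, Col6a3 and Col6a2 alone of the 13 pairs changed direction: the log2 ratio was 0.19 by TPM, within its spread of 0.28, and -0.89 by counts per kb. The length used there is that of Col6a3-201, 10106 nt, which holds 0% of the Col6a3 TPM in both libraries. The pair Col4a3 and Col4a4, at a log2 ratio of -0.64, rests on the few counts given above.

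**Figure D3:**
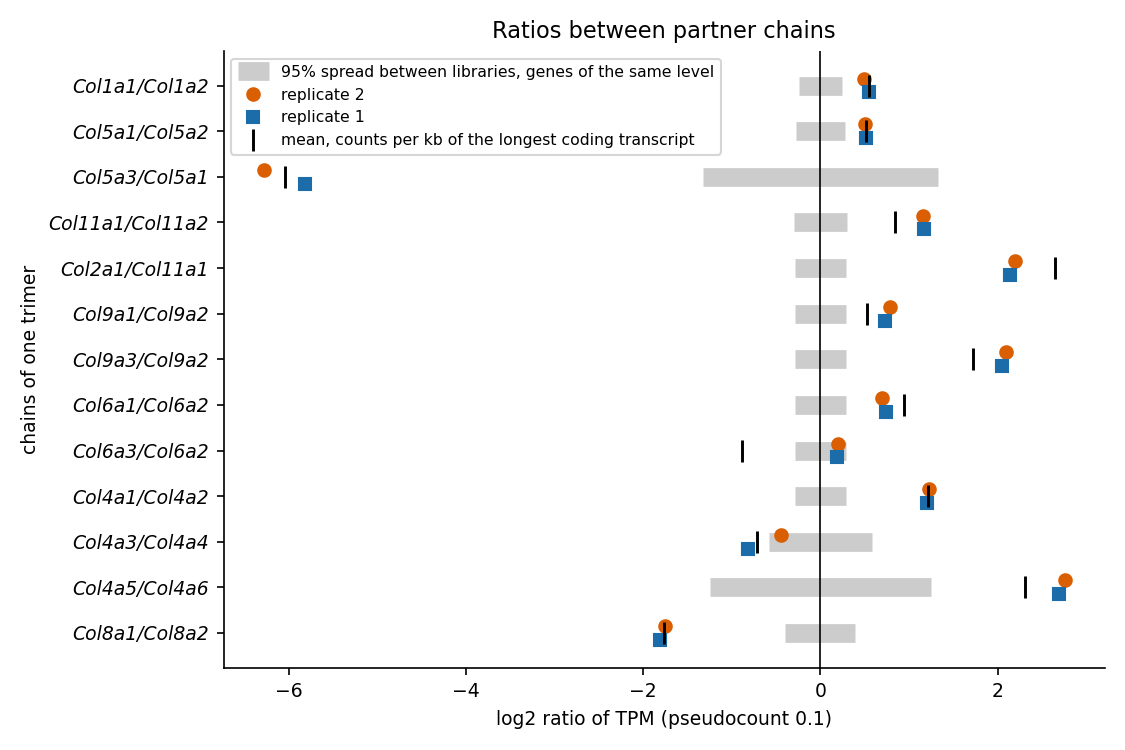
Log2 TPM ratio between partner chains in replicate 2 (circles) and replicate 1 (squares), with the mean by counts per kb (ticks) and the same-level spread between libraries (grey bars). Col6a3/Col6a2 lies inside its bar by TPM and at -0.89 by counts per kb.

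Each gene's transcripts were then compared as the percent of the gene's TPM that each holds, for the 33 members that averaged at least 5 TPM. Transcripts are named as in GENCODE. A total of 18 members had 2 or more transcripts at 10% or more in both libraries. Many of these are fragments: counting complete coding transcripts alone, 6 members did. Complete coding transcripts held 90% or more of the gene in 19 members and under 50% in 6 members. Where a fragment is short, few reads can give it a high TPM. In Col6a3, the 646 nt retained-intron transcript Col6a3-206 held 47.7% of the TPM in replicate 2 and 49.4% in replicate 1, but 877 expected counts in replicate 2 and 1072 in replicate 1, against 11428 in replicate 2 and 13272 in replicate 1 for the full-length Col6a3-202. In Col3a1, the 737 nt incomplete Col3a1-205 held 29.8% in replicate 2 and 32.7% in replicate 1. In Col12a1, the 1784 nt incomplete Col12a1-204 held 50.5% in replicate 2 and 52.4% in replicate 1. It had 3587 expected counts in replicate 2 and 4169 in replicate 1, so its share does not rest on few reads. The complete Col12a1-201 had 12144.5 expected counts in replicate 2 and 13269 in replicate 1. Levels of these genes therefore depend on whether such fragments are counted as transcripts.

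**Figure D4:**
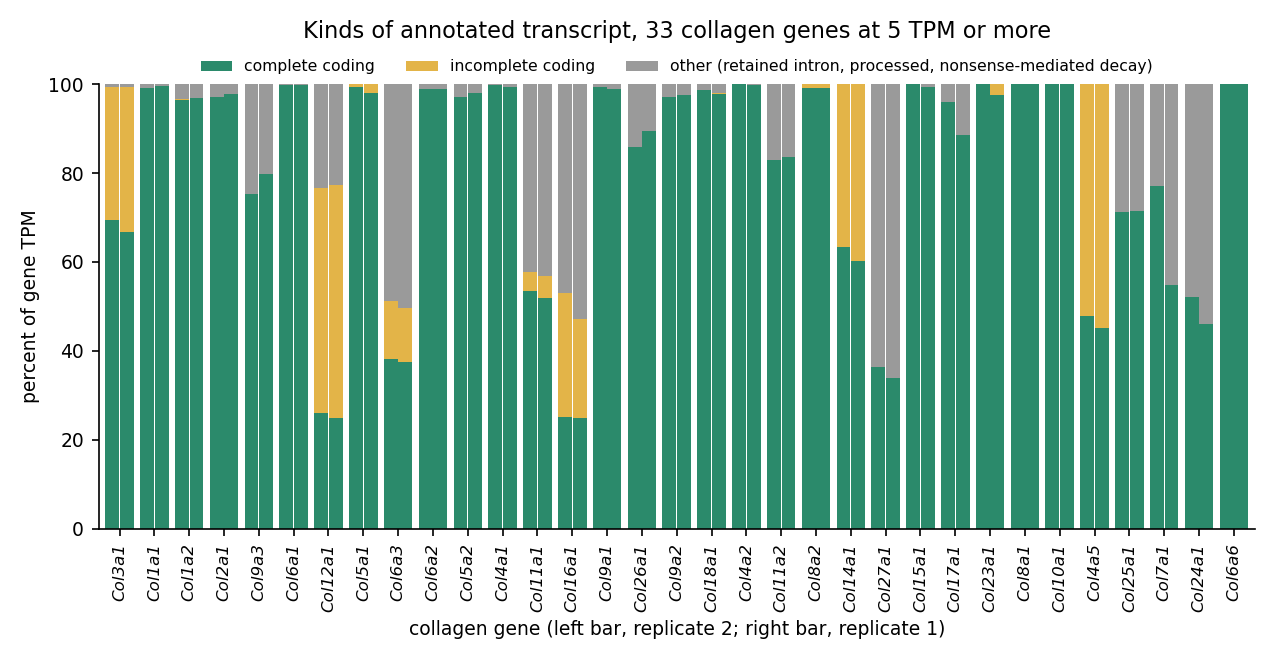
Percent of gene TPM held by complete coding, incomplete coding and other transcripts for 33 collagen genes, left bar replicate 2 and right bar replicate 1. Col12a1 and Col16a1 show the lowest complete coding shares, at 26.1% and 25.04% in replicate 2.

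Col2a1 is spliced with or without its exon 2, which encodes a cysteine-rich domain of the N-terminal propeptide. The form with it is known from chondrocyte precursors and the form without it from differentiated chondrocytes. Col2a1-201, with exon 2, held 35.1% in replicate 2 and 27.6% in replicate 1. Col2a1-202, without it, held 62.0% in replicate 2 and 70.1% in replicate 1. The form without exon 2 was the more abundant in both libraries, and the form with it was higher in replicate 2. Sox9, a gene of chondrocytes and their precursors, moved the same way with 102 TPM in replicate 2 and 75.6 TPM in replicate 1, while the other 5 cartilage markers were lower in replicate 2; the part of such differences in the form shares was not tested. Exon 2 lies at chr15:98000403-98000606 (GRCm38, minus strand), is 204 nt long and adds 68 codons. Col17a1 differs between its 2 main forms by exon 48, at chr19:47650048-47650158 (minus strand), 111 nt and 37 codons long. Col17a1-201, with that exon, held 61.6% in replicate 2 and 64.4% in replicate 1, and Col17a1-202, without it, 34.3% in replicate 2 and 24.1% in replicate 1. Both skipped exons are given in the sense of the transcript, with the exon in capitals and 15 bases of the neighbouring exons in lower case.
Col2a1 exon 2: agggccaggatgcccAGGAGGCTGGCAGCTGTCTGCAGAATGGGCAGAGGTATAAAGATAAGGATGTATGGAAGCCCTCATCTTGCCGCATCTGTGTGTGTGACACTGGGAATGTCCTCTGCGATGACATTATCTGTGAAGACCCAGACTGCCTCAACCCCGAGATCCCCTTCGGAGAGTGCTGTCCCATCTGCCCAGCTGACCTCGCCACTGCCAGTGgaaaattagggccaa
Col17a1 exon 48: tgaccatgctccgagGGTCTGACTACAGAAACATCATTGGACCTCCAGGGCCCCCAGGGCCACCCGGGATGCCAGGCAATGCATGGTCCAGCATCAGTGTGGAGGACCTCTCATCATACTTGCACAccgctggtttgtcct

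Different start sites separate further forms of Col9a1 and Col18a1. The short Col9a1-202, which starts at its own first exon and lacks 801 nt of the coding sequence of the long form, held 77.1% in replicate 2 and 74.1% in replicate 1. The long Col9a1-201, which carries the large N-terminal domain known from cartilage, held 22.2% in replicate 2 and 24.7% in replicate 1. The short form thus led in both libraries. For Col18a1, the short form Col18a1-202, known from basement membranes, held 96.2% in replicate 2 and 94.0% in replicate 1, and the 2 longer forms stayed at 1.97% or less each. Col15a1, whose start sites were not compared, was divided mainly between Col15a1-202 and Col15a1-203. The full Col15a1-202 held 46.0% in replicate 2 and 46.9% in replicate 1. The 1755 nt Col15a1-203 held 53.5% in replicate 2 and 51.5% in replicate 1. By expected counts the full Col15a1-202 led, with 1222 in replicate 2 and 1265 in replicate 1, against 464 in replicate 2 and 454 in replicate 1 for Col15a1-203.

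For other large genes the estimate was shared with incomplete or noncoding transcripts. Col11a1-201, the complete form, held 53.4% in replicate 2 and 51.9% in replicate 1, and Col11a1-204, annotated as a target of nonsense-mediated decay and only 2570 nt long, 41.9% in replicate 2 and 42.8% in replicate 1. By expected counts the complete Col11a1-201 led, with 11129.7 in replicate 2 and 11927 in replicate 1, against 2851 in replicate 2 and 3212 in replicate 1 for Col11a1-204. Col4a5-202 held 47.8% in replicate 2 and 39.4% in replicate 1, and the incomplete Col4a5-204 52.2% in replicate 2 and 54.8% in replicate 1. By expected counts Col4a5-202 led, with 778 in replicate 2 and 636 in replicate 1, against 449.95 in replicate 2 and 469 in replicate 1 for Col4a5-204. Col16a1 was the most divided: the complete Col16a1-201 held 25.04% in replicate 2 and 25% in replicate 1, the 833 nt processed transcript Col16a1-207 39.4% in replicate 2 and 43.6% in replicate 1, and the incomplete Col16a1-210 24.3% in replicate 2 and 21.1% in replicate 1. By expected counts Col16a1-201 led, with 3222 in replicate 2 and 3458 in replicate 1, against 728 in replicate 2 and 866 in replicate 1 for Col16a1-207, and 2407 in replicate 2 and 2245 in replicate 1 for Col16a1-210. By contrast, Col1a1, Col4a1, Col6a1 and Col8a1 were almost wholly complete coding, with 99.19% or more of their TPM in such transcripts in both libraries, and Col1a2-201 held 96.5% in replicate 2 and 96.9% in replicate 1.

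Small shifts of a splice site separated further pairs. In Col14a1 an exon of 152 or 143 nt is used, and Col14a1-203, with the shorter exon, held 52.0% in replicate 2 and 53.2% in replicate 1, against 10.3% in replicate 2 and 6.97% in replicate 1 for Col14a1-201. In Col26a1 the choice is between 104 and 98 nt, and Col26a1-202, with the shorter exon, held 61.9% in replicate 2 and 70.4% in replicate 1, against 23.96% in replicate 2 and 18.9% in replicate 1 for Col26a1-201. Of the forms compared, the form with the shorter exon held more in both genes. Col14a1-203 has another length in the reference annotation than in the transcript table. The incomplete Col14a1-204, which was not compared, held 36.7% in replicate 2 and 39.85% in replicate 1. In Col11a2, the form Col11a2-204 with 2 more exons in the N-terminal region held 1.45% in replicate 2 and 1.70% in replicate 1, against 81.1% in replicate 2 and 81.6% in replicate 1 for Col11a2-201, which lacks them. The transcript table gives Col11a2-204 a length of 2090 nt, shorter than in the reference annotation, so its share rests on part of the transcript.

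The 2 libraries were then compared as replicate 2 over replicate 1. There is 1 library on each side, so the difference has no replicate check and the tests compare those libraries and not conditions. By an exact binomial test on expected counts scaled by TMM, with Benjamini-Hochberg adjustment over 19153 genes, 4 of 43 collagen genes tested (Col26a1, Col27a1, Col13a1 and Col23a1) were higher in replicate 2 and 20 were lower, while 12.4% of all genes tested were higher and 14.6% lower. Because collagen genes have high counts, and high counts pass such a test at small differences, the same was counted among genes with 1000 or more counts, a limit chosen after the values were seen: 3 of 34 members were higher and 18 lower, against 17.1% and 20.2% of 9440 genes. A floor of 1000 counts does not match depth, since members such as Col1a1 (535588 in the sum) lie far above it. The effect of high counts may therefore remain in these shares. The test covers counting error only. Of the 20 genes, 4 (Col2a1, Col5a1, Col5a2 and Col4a1) had a TPM ratio above 0. The TPM scale puts the median gene at a log2 ratio of 0.07 and TMM puts it at -0.00. With spike-in scaling 5 members were higher and 13 lower, so that 27.8% of called members were higher against 16.7% with TMM, beside 69.1% and 45.9% of all called genes. Those 13 are all among the 20, and include Col1a1, Col1a2, Col3a1, Col6a1, Col6a2, Col6a3, Col12a1 and Col14a1.

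The libraries were also compared with the difference that is typical of them. At 1.5-fold in TPM, 0 of 39 members were higher and 1, Col7a1, was lower, against 4% and 2.95% of 15307 genes. By the edgeR exact test at the common dispersion of the libraries, with Benjamini-Hochberg adjustment, 0 of 42 members were called, against 0.177% of 16920 genes higher and 0.491% lower, and 4 members (Col5a3, Col14a1, Col7a1 and Col4a4) had an unadjusted p under 0.05. That is 9.52% of the members tested, against 6.62% of all genes tested. The log2 TPM ratio lay beyond the same-level spread for 3 of 39 members (7.69%), where 5% of genes of the same level lie beyond it by construction. Col26a1 was higher at 0.36, outside its spread of 0.29, but its log2 ratio by edgeR was smaller, at 0.23. Its transcripts under 1000 nt held 12.5% of its TPM in replicate 2 and 8.65% in replicate 1. Col14a1 was lower at -0.37, outside its spread of 0.32, and stood at -0.41 by edgeR. Col7a1 was lower at -0.83, outside its spread of 0.54. The median log2 TPM ratio was -0.00 over the detected members and 0.07 over all genes at that level.

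**Figure D5:**
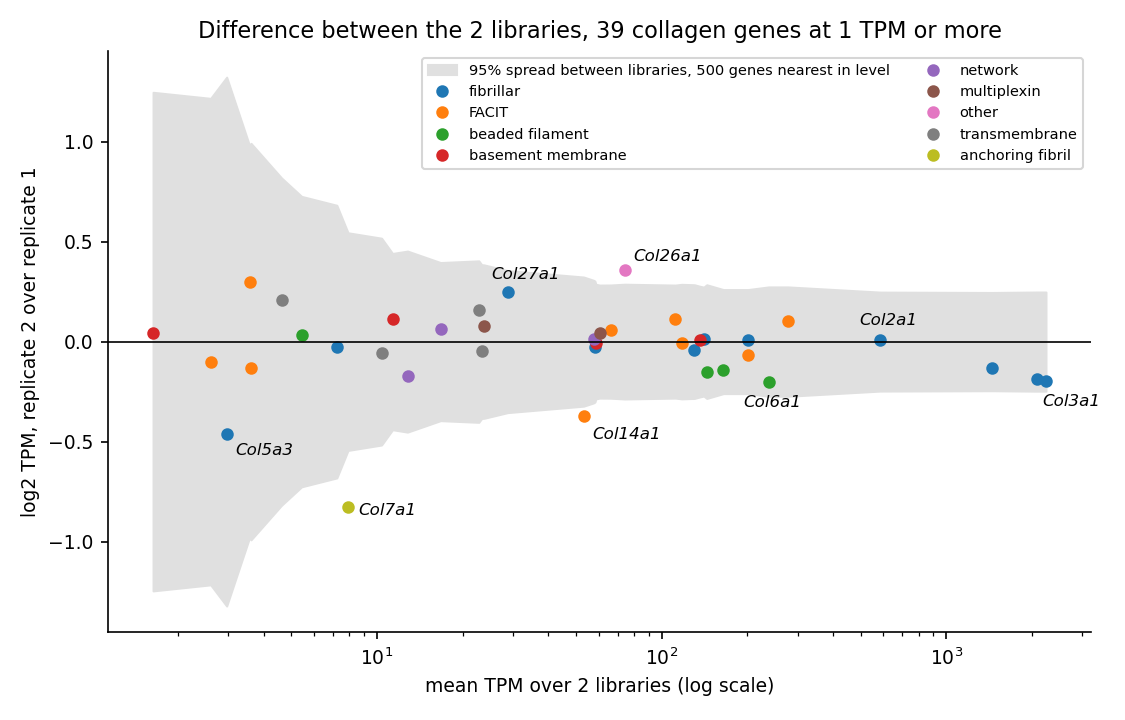
Log2 TPM ratio of replicate 2 over replicate 1 against mean TPM (log axis) for 39 collagen genes, coloured by class, over the same-level 95% spread between libraries (grey). Col26a1 (0.36), Col14a1 (-0.37) and Col7a1 (-0.83) lie outside the band.

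Col7a1 had 876 expected counts in replicate 2 and 1197 in replicate 1, a log2 ratio of -0.42 by edgeR, smaller than by TPM. The 245 nt retained-intron transcript Col7a1-207 held 0% of its TPM in replicate 2 and 32.2% in replicate 1, from 10.97 expected counts in replicate 1. Its difference in TPM is past 1.5-fold, and by TMM-scaled counts it is not. Markers of tissue layers also differed between the libraries. The 7 epidermis markers summed to 1323 TPM in replicate 2 and 1553 TPM in replicate 1, with a median log2 ratio of -0.28 and all 7 lower in replicate 2. The 5 fibroblast markers summed to 1402 TPM in replicate 2 and 1400 TPM in replicate 1, the 4 bone markers to 172 TPM in replicate 2 and 226 TPM in replicate 1, and the 8 muscle markers to 1025 TPM in replicate 2 and 1497 TPM in replicate 1. Red cell markers summed to 17224 TPM in replicate 2 and 25920 TPM in replicate 1, and limb mesenchyme markers to 274 TPM in replicate 2 and 217 TPM in replicate 1. Markers of a list did not always move together by TPM. Of the fibroblast markers, Pdgfra, Twist1 and Fbln2 were higher in replicate 2, and Dcn and Lum, the highest of the 5, were lower. Of the bone markers, Runx2 was higher and 3 were lower. Ibsp alone held 150 of the 172 TPM summed over the bone markers in replicate 2. All 8 muscle and all 6 red cell markers were lower, and all 6 limb mesenchyme markers were higher. Of 5 tendon markers, 4 were higher and 1 was lower. On this TPM scale the median gene stood at a log2 ratio of 0.07, and Fmod, counted as higher, at 0.08. No defining marker of these lists was at 0. The part of these tissues in the collagen differences was not tested.

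The genes that act on collagens were present with them. All 13 genes of chain assembly in the endoplasmic reticulum reached 1 TPM in both libraries, led by P4hb, a subunit of prolyl 4-hydroxylase, at 777 TPM, Serpinh1, the collagen chaperone HSP47, at 580 TPM and Ppib, cyclophilin B, at 564 TPM. All 12 genes of propeptide removal and crosslinking did so too, led by Pcolce at 171 TPM, which aids C-propeptide cleavage, Lox at 117 TPM, which crosslinks collagen, and Bmp1 at 72.4 TPM, the C-proteinase. Of 11 collagen receptor genes 9 did, led by the integrin subunit Itgb1 at 223 TPM and by the discoidin receptors Ddr2 at 69.6 TPM and Ddr1 at 43.3 TPM, while Gp6 of platelets and Lair1 of leukocytes stayed under 1 TPM. By the exact binomial test, 0 of 13 assembly genes were higher and 5 lower in replicate 2. Of 12 crosslinking genes, 1 was higher and 4 lower. Of 11 receptor genes, 1 was higher and 1 lower, and Gp6 had too few counts to be tested. The shares over all genes tested were 12.4% higher and 14.6% lower, and 17.1% and 20.2% among genes with 1000 or more counts. Of 16 genes for other proteins with a collagen-like domain, 11 reached 1 TPM in both libraries, led by Cthrc1 at 261 TPM, and Adipoq, Colec10, Colec11, Marco and Gldn did not.

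Collagen genes lie in pairs at several places in the genome. The 44 genes are spread over 15 chromosomes and form 8 neighbouring pairs within 100 kb. The 3 head-to-head pairs are all of type IV, where partner chains start next to each other on opposite strands. Col4a1 and Col4a2 share 22 nt at their starts and differed 2.32-fold in mean TPM, Col4a6 and Col4a5 lie 1308 nt apart and differed 6.94-fold, and Col4a4 and Col4a3 lie 71 nt apart, both near 0. In the other orientations, the tail-to-tail pair Col3a1 and Col5a2 differed 15.9-fold, Col9a1 and Col19a1 31.2-fold, and the 3 tandem pairs, all of type VI, differed 1.65-fold (Col6a2 and Col6a1), 8.49-fold (Col6a6 and Col6a5) and 5.82-fold (Col6a5 and Col6a4, both under 1 TPM). In the reference annotation 13 members share exon bases with another gene. For 5 of them (Col4a1, Col4a2, Col5a1, Col10a1 and Col20a1) that gene reached 1 TPM in at least 1 library. No source used here gives the strand of the libraries, so reads in shared bases cannot be assigned by strand.

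Promoter windows of 250 bases before the start were matched for 35 members in RefSeq (GRCm38.p6). The window nearest the start of the complete transcript with the longest coding sequence was taken. For Col9a1 and Col18a1 this is the window of the long forms, which held less of the TPM than the short forms. Col1a1, Col2a1, Col9a3, Col12a1 and Col5a2 are among the members without a window. The letters TATAAA were found on either strand in 14.3% of them and in 12.4% of 32851 promoters of the same length, CCAAT in 31.4% of members and 33.8% of all, GGGCGG in 57.1% of members and 32.7% of all, TGTGGT in 8.57% of members and 14.0% of all, and ACAATGG in 0% of members and 3.02% of all. None of these motifs contains another. The windows of Col1a2 and Col3a1 are shown because both genes are among the 3 highest of the family and their windows differ in base composition, with 62% G and C in Col1a2 and 35.2% in Col3a1. The first is chr6:4505368-4505617 and the second chr1:45311288-45311537, both on the plus strand, with motif matches in capitals. The RefSeq start used for Col1a2 lies inside the GENCODE span of the gene given above. Distances for Col1a2 are counted from that RefSeq start.
Col1a2: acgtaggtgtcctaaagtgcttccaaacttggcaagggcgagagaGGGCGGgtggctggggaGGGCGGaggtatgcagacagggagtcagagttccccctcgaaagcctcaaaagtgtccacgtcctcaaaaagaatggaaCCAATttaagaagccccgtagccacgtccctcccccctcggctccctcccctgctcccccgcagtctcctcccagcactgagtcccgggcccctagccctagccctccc
Col3a1: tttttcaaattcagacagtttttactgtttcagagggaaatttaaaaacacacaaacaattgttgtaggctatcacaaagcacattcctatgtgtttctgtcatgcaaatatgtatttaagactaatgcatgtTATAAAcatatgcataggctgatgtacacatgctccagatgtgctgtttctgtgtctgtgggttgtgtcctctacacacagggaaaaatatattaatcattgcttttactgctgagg
Col1a2 holds GGGCGG at 205 and 188 bases and CCAAT at 109 bases before the start, and Col3a1 holds TATAAA at 117 bases before it. A match is a run of letters and not a bound site.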

How the data were processed

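Total RNA of E14.5 limb was measured in 2 libraries of 1 group. Per the notes deposited with the samples, reads were aligned to the transcriptome (mm10, GENCODE M4); aligner, quantification program and strand: not given in the sources used here. Expected counts in the authors' tables are the estimated reads of each gene and transcript. The authors scaled TPM per length to an equal total in each library, spike-ins included; posterior mean TPM, deposited beside it, was an alternative. The authors also deposited each transcript's percent of its gene's TPM. The signal-type bounds of TPM intervals were deposited by the authors without a stated level and were not printed.

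Symbols were matched by Ensembl identifier to GENCODE M21 (42462 of 43346 identifiers); 187 of 201 member transcripts have the same length in both annotations. Counts were rounded for the binomial test (sum of 10 or more, TMM sizes) and edgeR 4.0.16 (R 4.3.3; BCV 0.0992), with Benjamini-Hochberg adjustment at 0.05 over all genes; DESeq2 1.42.0 size factors were an alternative. Log2 TPM ratios used a pseudocount of 0.1. Python 3.11.15 was used, and the tests were run on simulated counts drawn under their own assumptions. Such a check cannot show how they behave on these libraries. P-values measure only the spread or counting error of these libraries.

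Every member could be named; values per library are given for the 25 members of highest mean TPM and the chains of the ratios. Of the related lists the 3 highest genes and, for the lists of receptors and other collagen-like proteins, those under 1 TPM were named. The members and lists were chosen with earlier results of these data known. Alternatives covered scaling, pseudocount, filters, fold, posterior means and leaving out a library.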

Additional observations from a re-analysis of the deposited data

How the results depend on the processing

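The number of detected collagen genes, 39 of 44, was 33 at a minimum of 5 TPM and 39 in each other setting tried. The fibrillar share of 78.3% was 82.2% by expected counts and 80.5% by counts per kb, and 77.6% to 79.0% with 1 library. The count of chain ratios beyond the spread, 12 of 13, ranged from 11 to 13, and from 11 to 12 with 1 library. Col6a3/Col6a2 changed to a log2 ratio of -0.89 by counts per kb, and Col4a3/Col4a4 to 0.47 with posterior mean TPM. The 20 members lower by counting error became 13 with spike-in scaling. At a lower fold limit, 1 member was higher and 3 were lower; at 2-fold, 0 were lower; without a minimum TPM, 1 was higher and 3 were lower; by TMM-scaled counts, 0 were lower. Members with 2 or more forms fell to 6 when complete coding transcripts alone were counted. The counts per kb and the complete-coding alternatives were chosen after seeing the data. The cause of these changes was not tested. The other values moved by less than the SD over the 2 libraries in 194 cases and by more in 59. Of those 59, 30 were levels of single genes, 17 chain ratios, 10 class shares and 2 transcript shares. Leaving out a library moves a mean by less than this SD by construction, so such cases among the 194 are no sign of stability. No paired analysis was possible because there is 1 group. The limits are 1 library on each side of the library comparison, and short annotated fragments that hold part of the TPM of several genes.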
